A study of Mus musculus with 12 samples.

Results

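The genes described here were 10 genes of the mouse cytoskeleton. Of these, 7 have very long mRNAs and code for large proteins that tie filaments to each other or to membranes (Plec, Macf1, Utrn, Flna, Ahnak, Tln1 and Myh9), and 3 have short, abundant mRNAs and stood beside them as a contrast (Vim, Tmsb4x and Actb). They were matched by symbol to the Ensembl identifiers in the deposited counts. All 10 were found among the 54446 gene identifiers, and all 10 passed the filter on low counts in each of the 5 comparisons. They had been selected on their length and function with their levels and their IP/Input ratios in both conditions known, so all of these values count as used in choosing them. Their values are given as a description: the fits across all genes also made calls for them, which are counted beside the share of all genes called and support nothing, and tests are read only for other cytoskeletal genes.

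The libraries came from RNA immunoprecipitation sequencing (RIP-seq) of YTHDF2, a cytoplasmic reader protein that binds mRNA carrying N6-methyladenosine (m6A) and promotes its decay. CD11b+ myeloid cells, a mixture of monocytes, macrophages and neutrophils, were sorted from tumors of the mouse colon carcinoma line MC38 grown in WT mice, and the labels give no age or strain. Tumors of the IR groups had received a single dose of 20 Gy and cells were taken 3 days later, and those of the Ctrl groups were not irradiated. Each condition had 3 pools of mice, and each pool gave an Input library and a YTHDF2 IP library, which makes the groups Ctrl Input, Ctrl IP, IR Input and IR IP with n = 3 libraries each. The methods call these pools technical replicates, so errors and p-values measure the spread between pools and may in part be technical. The labels and the methods name different suppliers for the antibody, and no immunoprecipitation with a control antibody was used here.

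Between 27852948 and 42382532 reads were counted to genes per library. A mean of 27.0% of the reads in Ctrl Input and 24.7% in IR Input fell outside annotated exons, against 42.3% in Ctrl IP and 51.4% in IR IP. The myeloid label was checked with marker genes: all 10 myeloid and 6 neutrophil markers were detected in every group, with summed levels of at least 4997 CPM and 5829 CPM in the Input libraries. The markers of T and NK cells summed to at most 7.87 CPM in any library. The 6 fibroblast markers summed to at most 18.9 CPM, and Col1a1, a fibroblast collagen, had group means of at most 11.5 CPM. Other lists were higher: the 4 B cell markers summed to at most 48.97 CPM, in Ctrl IP. The 5 endothelial markers summed to 74.1 to 112 CPM, mostly Vwf and Pecam1. The 6 epithelial markers summed to 43.7 to 129 CPM, nearly all of it Cdh1, while Krt8 and Krt18, keratins of simple epithelia, had group means under 1 CPM and Cdx2 was at 0 in 3 of the 4 groups.

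Cells keep their shape through actin filaments, microtubules and intermediate filaments, and cross-linking proteins join these networks to each other, to the nucleus and to adhesion sites. Plakins and spectrin-repeat proteins are the largest of these linkers, and their coding sequences are among the longest in the genome. In myeloid cells the actin and vimentin networks carry migration, adhesion and phagocytosis, and their transcripts are among the most abundant of the cell.

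The members spanned a wide range of lengths in the GENCODE M21 annotation of mm10. The long members had 9.4 kb (Flna) to 31.4 kb (Macf1) of merged exons, against 1.37 kb for Tmsb4x, 2.68 kb for Actb and 4.74 kb for Vim. The letters GGACT, the strongest form of the m6A consensus, were searched on the sense strand of the transcript with the longest coding sequence of each gene. They occurred 27 times in Macf1 and 19 times in Ahnak, but only 1 time in Tmsb4x and 2 times in Vim, so these long mRNAs held more copies. Per kb the order was not that of length: Plec had 0.841 sites, the lowest density of the 10, and Actb had 2.083, the highest. The median over protein-coding genes was 1.06 per kb and 91.4% of them held at least 1 site. In the 7 long members the sites lay mostly in the coding sequence (12 of 13 in Plec, 26 of 27 in Macf1, all 10 in Flna and all 12 in Tln1). A match is a description of letters and not a measured m6A site.

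The sites of the 3 short members and of Myh9, the long member with the fewest, are shown to make the contrast in number visible. The capitals mark GGACT with 10 bases on each side, read 5′ to 3′ on the transcript, and the coordinates are those of the 5 capital bases in mm10.
Tmsb4x site 1, chrX:167208579-167208583, minus strand, 5′ UTR: cagcattgttGGACTagagagagga
Vim site 1, chr2:13574128-13574132, plus strand, 5′ UTR: attagtaacaGGACTgtgcttgata
Vim site 2, chr2:13574683-13574687, plus strand, coding sequence: aagactcggtGGACTtctcgctggc
Actb site 1, chr5:142905446-142905450, minus strand, coding sequence: tgggtcagaaGGACTcctatgtggg
Actb site 2, chr5:142904683-142904687, minus strand, coding sequence: gcattgtgatGGACTccggagacgg
Actb site 3, chr5:142903791-142903795, minus strand, 3′ UTR: gcttctaggcGGACTgttactgagc
Actb site 4, chr5:142903531-142903535, minus strand, 3′ UTR: atgtggctgaGGACTttgtacattg
Myh9 site 1, chr15:77783497-77783501, minus strand, coding sequence: ccggcaaggtGGACTataaagctga
Myh9 site 2, chr15:77771849-77771853, minus strand, coding sequence: aggacacgctGGACTccacggctgc
Myh9 site 3, chr15:77769540-77769544, minus strand, coding sequence: agcttacgaaGGACTtctctgcgct
Myh9 site 4, chr15:77768956-77768960, minus strand, coding sequence: ggcttcagaaGGACTtggaaggcct
Myh9 site 5, chr15:77765813-77765817, minus strand, coding sequence: cccagatgaaGGACTgcatgcggga
Myh9 site 6, chr15:77761176-77761180, minus strand, 3′ UTR: aatggttaagGGACTtgcagggcct
Myh9 site 7, chr15:77761106-77761110, minus strand, 3′ UTR: gcctctcctaGGACTggggccaagg

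Levels were compared between genes per kb of merged exons, in CPM (counts scaled to a common library total) after edgeR's trimmed-mean (TMM) scaling over the 12 libraries together. In Ctrl Input the short members stood highest: Tmsb4x at 2925 ± 86.2 CPM per kb (SD, n = 3) and Actb at 2723 ± 60.6, with Vim next at 714 ± 4.39. Tmsb4x and Actb were close, and the lowest Tmsb4x library (2828) stood above the highest Actb library (2774). Among the long members, Myh9 and Flna were the most abundant at 133 ± 2.81 and 131 ± 2.17 CPM per kb, and their libraries overlapped. Tln1 (54.1 ± 1.18) and Plec (50.4 ± 1.17) followed, then Ahnak (29.8 ± 0.299), Macf1 (10.1 ± 0.119) and Utrn (5.13 ± 0.0134). In IR Input the order differed: Flna (109 ± 1.18) stood above Myh9 (81.1 ± 1.72), and Ahnak, at 37.2 ± 1.57 CPM per kb, stood above Plec at 30.5 ± 0.692, both with no overlap between libraries. In the IP libraries, per kb of merged exons, Plec was the highest of the long members, at 114 ± 4.65 CPM per kb in Ctrl IP and 161 ± 5.62 in IR IP. The place of Myh9 depends on the length used. Per kb of its longest transcript Myh9 stood at 232 CPM in Ctrl Input, 141 in IR Input, 151 in Ctrl IP and 192 in IR IP, above Flna in both Inputs (145 and 121) and above Plec in both IP groups (134 and 188). As a share of all reads counted to genes, the 7 long members took 0.539% in Ctrl Input, 0.514% in Ctrl IP, 0.380% in IR Input and 0.747% in IR IP. The 3 short members took 1.47%, 0.340%, 1.63% and 0.415% of the same groups.

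**Figure D1:**
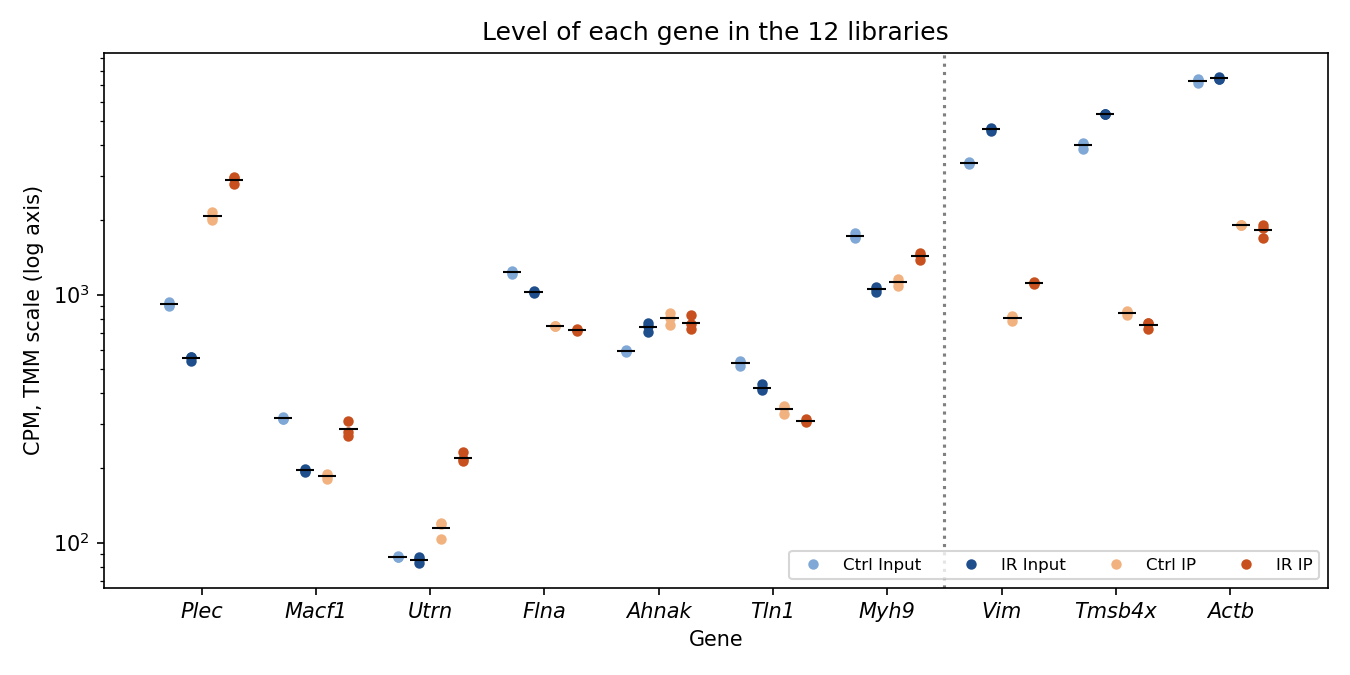
Level of each gene in CPM after TMM scaling (log axis) in the 12 libraries, with a point per library, a black bar at the mean of each group (n = 3) and a dotted line between the 7 long and the 3 short members. Plec stood higher in the IP than in the Input, Myh9 was lower in IR than in Ctrl in the Input and higher in the IP, and Vim, Tmsb4x and Actb stood far below their Input level in both IP groups.

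The plakins Plec and Macf1 are giant linkers: plectin joins intermediate filaments to actin and to hemidesmosomes, and Macf1 crosslinks actin with microtubules. In the next sentences levels are CPM in the pools 1, 2 and 3. Plec stood at 937, 896 and 908 CPM in Ctrl Input and at 1996, 2044 and 2159.8 CPM in Ctrl IP. With IR it stood at 561, 539 and 559.7 CPM in the Input and at 2951, 2793 and 2982 CPM in the IP. Every IP library was above every Input library, and in IR the Input was lower and the IP higher than in Ctrl with no overlap. The log2 IP/Input of Plec was 1.09, 1.19 and 1.25 in the Ctrl pools and 2.39, 2.37 and 2.41 in the IR pools. These ratios per pool use the scale of all 12 libraries and lie slightly below the fitted ones, which are scaled within each comparison. The fitted log2 ratio was 1.30 (SE 0.0374) in Ctrl and 2.52 (SE 0.0372) in IR, the highest of the 10 in both.

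Macf1 stood at 322, 316 and 315 CPM in Ctrl Input and at 179.9, 186 and 189.8 CPM in Ctrl IP. With IR it stood at 198, 193 and 195 CPM in the Input and 269.9, 279.7 and 309 CPM in the IP. The order of the fractions was turned around: in Ctrl all IP libraries were below all Input libraries, and in IR all were above. The log2 IP/Input was -0.84, -0.76 and -0.73 in the Ctrl pools and 0.44, 0.53 and 0.66 in the IR pools, with fitted values of -0.66 (SE 0.0417) and 0.67 (SE 0.0553).

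Utrophin, coded by Utrn, is a relative of dystrophin that ties actin to the membrane glycoprotein complex. Utrn was the least abundant member, at 87.8, 88.1 and 87.6 CPM in Ctrl Input and 82.5, 87.1 and 86.1 CPM in IR Input. Its IP levels were 103, 119.97 and 119 CPM in Ctrl and 217, 213 and 231 CPM in IR. The Input libraries of IR were slightly lower than those of Ctrl and the IP libraries higher, and the log2 IP/Input went from 0.24, 0.45 and 0.44 in the Ctrl pools to 1.39, 1.29 and 1.43 in the IR pools. The fitted log2 ratio was 0.50 (SE 0.0597) in Ctrl and 1.49 (SE 0.0575) in IR.

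Flna codes for filamin A, which crosslinks actin filaments into networks, and Tln1 for talin 1, which joins integrins to actin. Flna stood at 1206, 1247 and 1230.2 CPM in Ctrl Input and 748, 748 and 750.3 CPM in Ctrl IP, and at 1038, 1025 and 1016 CPM in IR Input and 718, 714 and 725 CPM in IR IP. Its IP libraries lay below the Input in both conditions, with a fitted log2 ratio of -0.59 (SE 0.0316) in Ctrl and -0.39 (SE 0.0331) in IR. Tln1 stood at 533, 517 and 540.1 CPM in Ctrl Input and 352, 329.5 and 355 CPM in Ctrl IP, and at 436, 419 and 412 CPM in IR Input and 309, 306 and 315 CPM in IR IP. Its fitted log2 ratio of -0.50 (SE 0.0403) in Ctrl and -0.32 (SE 0.0424) in IR was close to that of Flna, and these were the long members below the Input in both conditions. Part of the exons of Tln1 (3.67%) overlaps Creb3 on the opposite strand, and the strand setting of the counting is not given in the sources used here.

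Ahnak codes for a giant scaffold protein beneath the plasma membrane. Its levels were 592, 600.3 and 589 CPM in Ctrl Input and 754, 807 and 843 CPM in Ctrl IP, and 769, 708 and 748 CPM in IR Input and 724, 763 and 824 CPM in IR IP. The IP was above the Input in every Ctrl pool, and in IR the libraries of both fractions overlapped. The log2 IP/Input was 0.35, 0.43 and 0.52 in the Ctrl pools and -0.09, 0.11 and 0.14 in the IR pools, so Ahnak was the long member whose ratio was lower in IR. The fitted log2 ratio was 0.55 (SE 0.0408) in Ctrl and 0.18 (SE 0.0497) in IR.

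Myh9 codes for the heavy chain of non-muscle myosin IIA, the main contractile motor of myeloid cells. It stood at 1767, 1698 and 1712 CPM in Ctrl Input and 1083, 1123 and 1157 CPM in Ctrl IP, and at 1069.9, 1026 and 1052 CPM in IR Input and 1440.1, 1382 and 1465 CPM in IR IP. As with Macf1, the IP was below the Input in all Ctrl pools and above it in all IR pools. The log2 IP/Input was -0.71, -0.60 and -0.57 in the Ctrl pools and 0.43, 0.43 and 0.48 in the IR pools, with fitted values of -0.50 (SE 0.0355) and 0.57 (SE 0.0355).

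The short members had a different pattern, with IP levels far below the Input in every pool of both conditions. Vim codes for vimentin, the intermediate filament protein of mesenchymal and myeloid cells, and stood at 3412, 3380.5 and 3373 CPM in Ctrl Input and 824, 809 and 779 CPM in Ctrl IP. With IR, Vim stood at 4691, 4566 and 4662 CPM in the Input and 1108, 1128 and 1116 CPM in the IP, both above Ctrl, and its log2 ratio was -1.95 (SE 0.0321) in Ctrl and -1.93 (SE 0.0261) in IR. Tmsb4x codes for thymosin beta 4, which sequesters actin monomers, and stood at 3877, 4102 and 4052 CPM in Ctrl Input and 857, 853 and 828 CPM in Ctrl IP. With IR, Tmsb4x stood at 5363, 5337 and 5348 CPM in the Input and 726, 765 and 766 CPM in the IP, and its log2 ratio was -2.12 (SE 0.0309) in Ctrl and -2.71 (SE 0.0294) in IR, the lowest of the 10 in both. Actb codes for beta-actin and stood at 7115, 7431 and 7340.4 CPM in Ctrl Input and 1913, 1911 and 1913 CPM in Ctrl IP. With IR, Actb stood at 7435, 7384 and 7522 CPM in the Input and 1699, 1914 and 1848 CPM in the IP, and the libraries of Ctrl and IR overlapped in both fractions. Its log2 ratio was -1.81 (SE 0.0266) in Ctrl and -1.91 (SE 0.0372) in IR. Of the 50-base windows of Actb's exons, 14.22% also occur in other genes, Actg1 among them, so reads there could be shared.

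**Figure D2:**
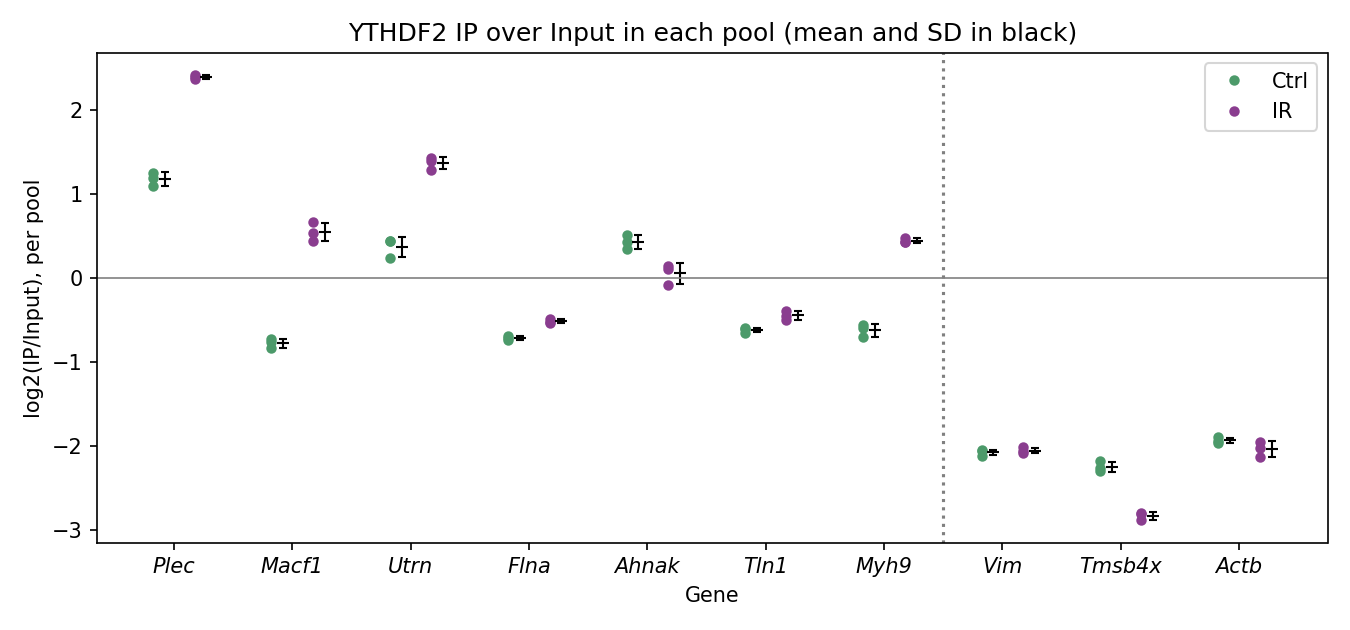
Log2 ratio of YTHDF2 IP over Input in each pool, on the scale of all 12 libraries, with Ctrl pools in green, IR pools in purple, and the mean and SD of the 3 pools in black. Macf1 and Myh9 lay below 0 in all Ctrl pools and above 0 in all IR pools, Plec and Utrn were above 0 in both and higher in IR, and Vim, Tmsb4x and Actb lay at -1.90 or below in every pool.

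In Ctrl, 3 of the 7 long members were called higher in the IP than in the Input and 4 lower, and all 3 short members lower. Over all 17416 genes tested, edgeR called 34.1% higher and 34.6% lower. The same 3 and 7 members had libraries that did not overlap between IP and Input, as had 32.4% (higher) and 40.9% (lower) of all genes tested. In IR, 5 long members were called higher (Ahnak with overlapping libraries) and 2 lower, and all 3 short members lower, beside 32.1% higher and 30.4% lower of 18650 genes. Without overlap were 4 long members higher and 2 lower and the 3 short members lower, beside 31.7% and 38.1% of all genes. These contrasts were used to choose the members, so nothing is read from the counts.

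The change of the log2 IP/Input with IR combined all 12 libraries in a single fit. It was 1.35 (SE 0.0685) for Macf1, 1.24 (SE 0.0505) for Plec, 1.09 (SE 0.048) for Myh9 and 1.02 (SE 0.0855) for Utrn, which is a ratio 2.02 to 2.55 times that in Ctrl. Flna and Tln1 changed less, by 0.22 (SE 0.0415) and 0.20 (SE 0.0582), and Ahnak changed by -0.35 (SE 0.0656). Among the short members, Tmsb4x changed by -0.56 (SE 0.038), and Vim and Actb had values of 0.05 (SE 0.0358) and -0.08 (SE 0.0427) with overlapping pools. So 6 long members were called higher and 1 lower, and 1 short member lower, beside 6.28% higher and 13.9% lower of 20720 genes. In these 8 members the ratios of the Ctrl and IR pools did not overlap, as in 13.2% (higher) and 22.6% (lower) of all genes. Scaling by library size alone moved the median of all genes by 0.31 and gave 2862 genes higher and 877 lower in place of 1301 and 2881. By that scaling Macf1, Plec, Myh9 and Utrn had values of 1.33 to 1.66, Flna 0.54, Tln1 0.51 and Vim 0.36, while Tmsb4x stood at -0.25, Ahnak at -0.04 and Actb, with its sign turned, at 0.23. The share of reads outside exons was higher in IR IP (51.4%) than in Ctrl IP (42.3%) and lower in IR Input (24.7%) than in Ctrl Input (27.0%), and its part in the result was not tested.

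The change had a part in each fraction. In the Input, Plec, Myh9 and Macf1 were lower in IR by a log2 difference of -0.80 (SE 0.0299), -0.80 (SE 0.0275) and -0.78 (SE 0.0326), and Tln1, Flna and Utrn by -0.41 (SE 0.0315), -0.34 (SE 0.0259) and -0.12 (SE 0.0415). Ahnak, Tmsb4x and Vim were higher, by 0.24 (SE 0.0302), 0.34 (SE 0.0218) and 0.37 (SE 0.0223). Actb differed by -0.05 (SE 0.02) with overlapping libraries, and had a value of 0.00087 when all 12 libraries entered a single fit. In all, 6 long members were called lower and 1 higher, and 2 short members higher and 1 lower, beside 21% higher and 23.9% lower of 16914 genes. All of these but Actb had groups that did not overlap, beside 32.5% (higher) and 21% (lower) of all genes. The summed neutrophil markers moved the same way as Vim and Tmsb4x, from 5829 to 6642 CPM in Ctrl Input to 8299 to 8947 CPM in IR Input, and the summed myeloid markers from 4997 to 5103 CPM to 6014 to 6093 CPM. Most of the myeloid rise was that of Itgam, from a group mean of 962 CPM in Ctrl Input to 1752 CPM in IR Input. Csf1r (217.8 to 212.1 CPM), Fcgr1 (43.75 to 34.15 CPM) and Adgre1 (31.95 to 28.57 CPM) were lower in IR Input. The other myeloid markers were higher, by less than Itgam. The part of these markers in the result was not tested. In sorted bulk cells, fewer cells of a type and less RNA per cell cannot be told apart.

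In the IP, Utrn, Macf1, Plec and Myh9 were higher in IR, by a log2 difference of 0.98 (SE 0.0719), 0.66 (SE 0.0617), 0.53 (SE 0.0371) and 0.38 (SE 0.0395). Vim was higher by 0.51 (SE 0.0391) as well. Flna, Ahnak, Actb and Tln1 were not called, at -0.02 (SE 0.0399), -0.02 (SE 0.0524), -0.04 (SE 0.0394) and -0.12 (SE 0.0524), and Tmsb4x differed by -0.14 (SE 0.0411). By library size alone the median of all genes moved by 0.205, and Tmsb4x (0.07), Flna (0.18), Ahnak (0.18), Actb (0.17) and Tln1 (0.08) came out above 0, while Utrn, Macf1, Plec, Myh9 and Vim stayed above it. Of the long members 4 were called higher, and of the short members 1 higher and 1 lower, beside 6.12% higher and 9.85% lower of 19255 genes. Without overlap were 5 members higher and 3 lower (Flna, Tln1 and Tmsb4x), beside 15.1% and 19.2% of all genes. The comparisons share libraries: the IP and Input libraries here are the same ones as in the ratios above.

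**Figure D3:**
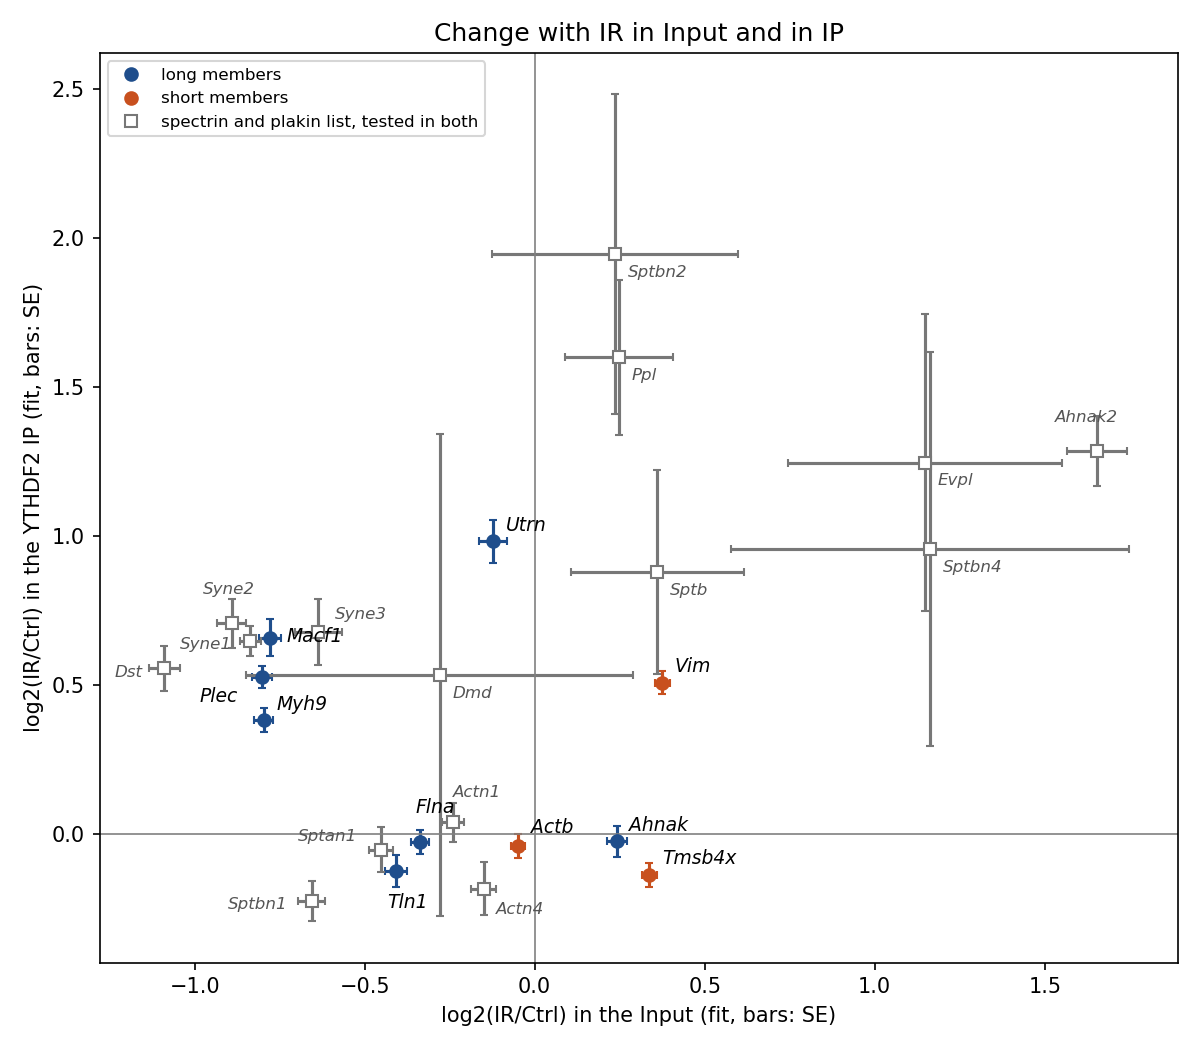
Fitted log2 difference between IR and Ctrl in the Input (x axis) and in the YTHDF2 IP (y axis), with bars of 1 SE, for the 7 long members (blue), the 3 short members (orange) and the 15 genes of the spectrin and plakin list tested in both fractions (open grey squares). Plec, Macf1, Myh9 and Utrn lie at upper left, lower in the Input (Utrn only slightly) and higher in the IP. Dst, Syne1, Syne2 and Syne3 lie there too, while Ahnak2, Ppl and others of the list do not.

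Genes with long exons tended to have higher IP/Input ratios, and the members were set beside genes of like length. With all genes tested, the median log2 IP/Input was -0.08 in Ctrl for genes under 1 kb of merged exons and 0.21 for genes over 8 kb. In IR these medians were 0.29 and 0.43, and those of the classes from 1 to 8 kb lay between -0.08 and 0.05, so the medians did not rise steadily with length. Among protein-coding genes they did: from -1.43 under 1 kb to 0.20 over 8 kb in Ctrl, and from -1.06 to 0.40 in IR. Across protein-coding genes, which are not independent replicates, Spearman's rho of the ratio with length was 0.206 in Ctrl (13042 genes) and 0.292 in IR (13804 genes). Over all genes tested rho was smaller, at 0.0676 in Ctrl and 0.0843 in IR.

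Within the class over 8 kb the long members were spread out. In Ctrl, Plec stood above 82.2% of the 2303 protein-coding genes of that class, Ahnak above 63.1% and Utrn above 61.3%, but Macf1 above only 17.9%. In IR, Plec stood above 89.5% of 2465 genes, Utrn above 79.6% and Macf1 above 59.6%, while Flna and Tln1 stood above 17.6% and 19.8%. For the change with IR, Macf1, Plec, Myh9 and Utrn stood above 85.5% to 90% of 2558 genes and Ahnak above 18.8%. For the Input, Plec, Myh9 and Macf1 stood above only 5.62% to 6.16% of 2224 genes, so their difference with IR lay at the low end of genes of like length. The short members lay below the lower quartile of their length classes in both conditions, for all genes tested.

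**Figure D4:**
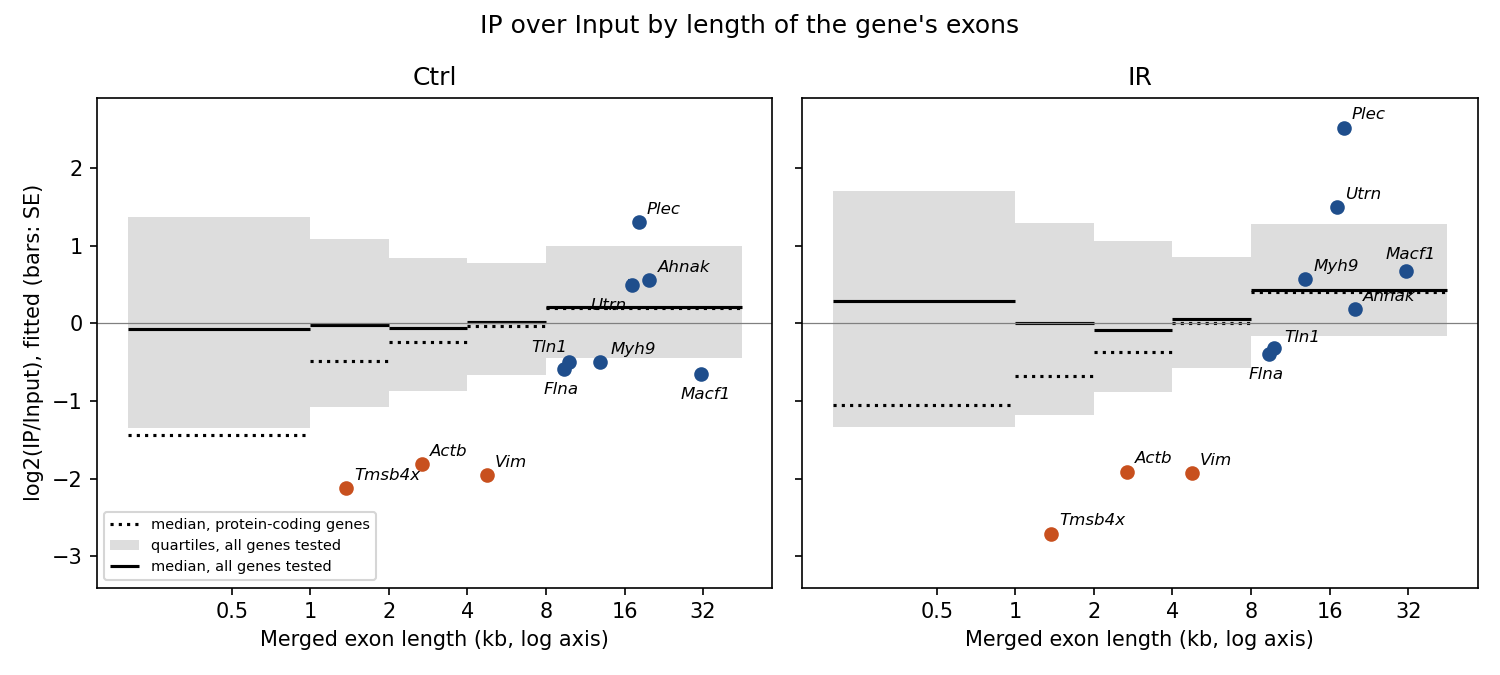
Fitted log2 IP/Input (y axis, bars of 1 SE smaller than the points) against the length of merged exons in kb (log axis) in Ctrl (left) and IR (right), with the quartiles (grey) and median (black line) of all genes tested and the median of protein-coding genes (dotted) in classes at 1, 2, 4 and 8 kb, the outer classes being open. The long members (blue) lie on both sides of the median of their class, and Vim, Tmsb4x and Actb (orange) lie below the grey band.

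A wider set of 175 cytoskeletal genes in 8 lists, with no member among them, was tested in the same fits, and 172 were matched by symbol to a counted gene. In Ctrl, 50 of the 151 tested were higher in the IP than in the Input and 73 lower, beside 34.1% and 34.6% of all genes tested. In IR, 63 of 157 were higher and 66 lower, beside 32.1% and 30.4%. The change with IR was called higher for 29 and lower for 25 of 163, beside 6.28% and 13.9%, and by library size alone for 64 and 3. Between IR and Ctrl, 35 of 145 were higher and 54 lower in the Input, beside 21% and 23.9%. In the IP 27 of 158 were higher and 11 lower, beside 6.12% and 9.85%, and by library size alone 58 and 1. The same shares of all genes stand behind the counts of each list. Highest and lowest below are meant among genes called with a mean of at least 100 counts and no overlap between the groups, and genes with fewer counts had larger values in several lists.

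The spectrin and plakin linkers, the closest relatives of Plec, Macf1 and Utrn, were mostly higher in the IP after IR. In IR, 14 of 19 tested were higher in the IP and 2 lower, with a median log2 ratio of 1.42 beside 0.10 over all genes tested. In Ctrl, 8 were higher and 4 lower of 19, with a median of 0.59 beside 0.02. By library size alone 7 were higher and 7 lower in Ctrl, and 16 and 1 in IR. The change with IR was higher for 7 of 20 and lower for 1, with a median of 0.67 beside -0.08 (by library size alone 9 were higher and 0 lower). Dst, which codes for the plakin dystonin, changed by 1.56 (SE 0.0905, adjusted p = 2.1e-10), and the nesprins Syne2, Syne1 and Syne3, which join the nucleus to the cytoskeleton, by 1.51, 1.40 and 1.23. The others called higher were the plakin Ppl (1.27) and the spectrins Sptbn1 (0.35) and Sptan1 (0.31). Ppl, the nesprins and the spectrins were named after their values were seen. Ahnak2, a relative of Ahnak, was the gene called lower, at -0.46 (SE 0.153, adjusted p = 0.0407), but its call was lost with the pool as a block (adjusted p = 0.064) and adjusted p ranged from 0.0221 to 0.577 over the alternatives.

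In the Input, 8 of 15 spectrin and plakin genes were lower in IR and 2 higher, with a median of -0.24, and Dst had the largest fall at -1.09 (SE 0.0465, adjusted p = 2.24e-16). Ahnak2 was the highest at 1.65 (SE 0.0888, adjusted p = 2.67e-14), in the same direction as Ahnak. In the IP, 8 of 20 were higher and 1 lower (10 and 0 by library size alone), led by the plakin Eppk1 at 2.43 (SE 0.478, adjusted p = 0.00216). Sptbn1 was the gene called lower, at -0.22 (SE 0.0679, adjusted p = 0.0345), and adjusted p ranged from 0.00446 to 0.881 over the alternatives. Several of the list (Dmd, Sptbn4, Actn2 and others, also named after their values were seen) had few counts and SEs of the change above 0.5, so only a large change with IR could have been called for them at this depth.

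**Figure D5:**
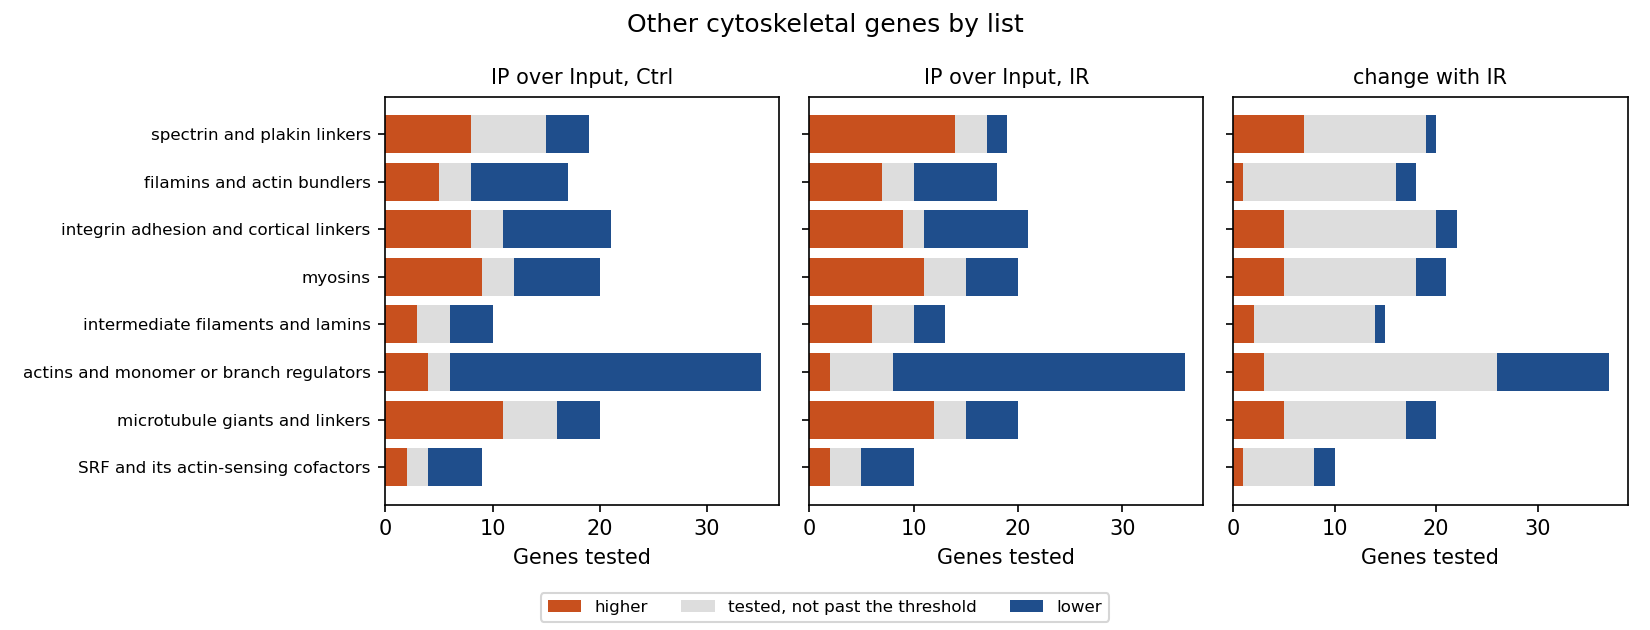
Number of genes in each of the 8 lists (x axis) that were called higher (orange), called lower (blue) or tested without a call (grey) in the IP/Input ratio of Ctrl, that of IR, and its change with IR. The actin list is mostly lower in the IP in both conditions, and the spectrin and plakin list has 8 of 19 genes higher in Ctrl and 14 of 19 in IR.

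The actins and their monomer and branching regulators stood on the other side, as did Actb and Tmsb4x. In Ctrl, 29 of 35 were lower in the IP and 4 higher (median -1.29), and in IR 28 of 36 were lower and 2 higher (median -1.24). Actg1, the gamma-actin gene, which shares sequence with Actb, was the lowest in Ctrl at -2.78 (SE 0.043, adjusted p = 1.57e-18), and Capza2, which codes for an actin capping subunit, was the lowest in IR among genes with at least 100 counts at -2.43 (SE 0.0712, adjusted p = 3.37e-10). Coro1c, a coronin, was highest in Ctrl at 0.96 (SE 0.0422, adjusted p = 1.16e-12) and Wasf2, an activator of actin branching, in IR at 0.55 (SE 0.0682, adjusted p = 3.61e-05). With IR the ratio of Actg1 rose by 0.61 (SE 0.0588, adjusted p = 2.45e-07), while that of Tmsb10, a close relative of Tmsb4x, changed by -0.56 (SE 0.0703, adjusted p = 7.42e-06). In this list 3 of 37 changed higher and 11 lower with IR, and by library size alone 14 and 1, so the balance of direction rests on the scaling. In the Input 13 of 35 were higher and 9 lower, with Tmsb10 at 0.41 (SE 0.0283, adjusted p = 3.45e-12) and Actr3, of the branching complex, at -0.29 (SE 0.0284, adjusted p = 4.06e-09). In the IP 3 of 36 were higher and 2 lower, and by library size alone 11 and 0, with Actg1 at 0.54 (SE 0.0704, adjusted p = 4.75e-05) and Coro1a at -0.22 (SE 0.0473, adjusted p = 0.00478).

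Myosins were split by chain. In Ctrl, 9 of 20 were higher in the IP and 8 lower, from the reverse motor Myo6 at 2.24 (SE 0.101, adjusted p = 1.59e-12) to the light chain Myl12a at -3.14 (SE 0.105, adjusted p = 2.45e-14), whose exons overlap Myl12b over 13.75% of their length. In IR, 11 were higher and 5 lower, with Myh10, the sister heavy chain of Myh9, at 1.95 (SE 0.468, adjusted p = 0.0038) and Myl12a at -3.48 (SE 0.109, adjusted p = 5.42e-10). The change with IR was higher for 5 of 21 and lower for 3, with the vesicle motor Myo5a at 0.56 (SE 0.0715, adjusted p = 9.28e-06) and Myo6 at -0.56 (SE 0.176, adjusted p = 0.0275), where adjusted p ranged up to 0.375. In the Input 10 of 18 were lower and 5 higher, with Myo7a at -0.51 (SE 0.0555, adjusted p = 2.29e-08) and the light chain Myl6 at 0.29 (SE 0.0281, adjusted p = 2.11e-09). In the IP 3 of 21 were higher and 1 lower, with Myo5a at 0.27 (SE 0.067, adjusted p = 0.00971) and Myo10 at -0.38 (SE 0.0881, adjusted p = 0.00652). Scaled by library size alone, 8 were higher and 0 lower both for the change and in the IP.

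Partners of Tln1 at integrin adhesions and the cell cortex were also split. In Ctrl, 8 of 21 were higher in the IP and 10 lower, with the membrane-actin linker Rdx at 1.54 (SE 0.0555, adjusted p = 6.51e-14) and the adhesion adaptor Lims1 at -1.83 (SE 0.0812, adjusted p = 1.3e-12). In IR, 9 were higher and 10 lower, with the focal adhesion kinase gene Ptk2 at 1.28 (SE 0.158, adjusted p = 3.52e-05) and the adhesion gene Ilk, whose exons overlap other genes by 89.69% on the opposite strand, at -1.45 (SE 0.0978, adjusted p = 2.48e-07). With IR, 5 of 22 changed higher and 2 lower. Vcl, which codes for the talin partner vinculin and overlaps Ap3m1 over 25.52% of its exons on the opposite strand, changed by 0.77 (SE 0.17, adjusted p = 0.00252), and Rdx by -0.77 (SE 0.0857, adjusted p = 1.58e-06). In the Input 7 of 21 were lower and 2 higher, with Tns3, a tensin, at -0.74 (SE 0.0553, adjusted p = 1.78e-11) and Rdx at 0.17 (SE 0.0388, adjusted p = 0.000698). In the IP 2 were higher and 2 lower of 21, with Lims1 at 0.56 (SE 0.137, adjusted p = 0.00972) and Rdx at -0.51 (SE 0.0615, adjusted p = 2.27e-05). By library size alone 10 were higher and 1 lower for the change, 6 and 1 in the IP, and 1 and 9 in the Input.

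The filamin and bundler list, with the sister genes of Flna, had 5 of 17 higher and 9 lower in Ctrl, and 7 of 18 higher and 8 lower in IR. The actin regulator Cald1 was highest in Ctrl at 1.75 (SE 0.134, adjusted p = 2.55e-09), the muscle filamin Flnc highest in IR at 1.49 (SE 0.253, adjusted p = 0.000402), and Marcksl1 lowest in both among genes with at least 100 counts, at -1.65 (SE 0.0487, adjusted p = 4.28e-15) and -1.72 (SE 0.0758, adjusted p = 7.6e-09). After TMM scaling 1 of 18 changed higher with IR, Svil at 0.49 (SE 0.0865, adjusted p = 0.00033), and 2 lower, with Cald1 at -1.18 (SE 0.261, adjusted p = 0.00252). In the Input 6 of 17 were higher and 6 lower, with Ablim1 at 1.55 (SE 0.0796, adjusted p = 9.94e-15) and Svil at -0.44 (SE 0.0379, adjusted p = 3.46e-10). In the IP 3 of 17 were higher, with Ablim1 at 1.39 (SE 0.13, adjusted p = 1.29e-06). Scaled by library size alone, 7 were higher and 1 lower for the change, so its balance turned, 7 and 0 in the IP, and 9 and 7 for IP/Input in IR.

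Relatives of Vim, the intermediate filament and lamin genes, had 3 of 10 higher and 4 lower in Ctrl and 6 of 13 higher and 3 lower in IR. Lmnb1, the gene of the nuclear lamina protein lamin B1, was lowest in both among genes with at least 100 counts, at -1.74 (SE 0.0666, adjusted p = 1.56e-13) and -1.13 (SE 0.0922, adjusted p = 1.24e-06), and its ratio rose with IR by 0.63 (SE 0.11, adjusted p = 0.000299) while its Input changed by -1.14 (SE 0.0452, adjusted p = 4.64e-17). By the same limit the neurofilament gene Nefh was highest in Ctrl at 1.30 (SE 0.191, adjusted p = 9.99e-06) and the nestin gene Nes in IR at 1.98 (SE 0.403, adjusted p = 0.00139). Of 15 genes 2 changed higher with IR and 1 lower, which was Nefh at -0.86 (SE 0.294, adjusted p = 0.046), a call lost with the pool as a block (adjusted p = 0.0789) and in 15 of 18 alternatives. In the Input 3 of 11 were higher and 2 lower, with Nefh at 0.88 (SE 0.15, adjusted p = 2.32e-05). In the IP 5 of 13 were higher and 1 lower, with the linker Synm at 3.05 (SE 0.513, adjusted p = 0.000572) and Lmnb1 at -0.42 (SE 0.125, adjusted p = 0.0299). Scaled by library size alone, 3 were higher and 0 lower for the change, and 6 and 0 in the IP.

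Microtubule giants and linkers, which work with Macf1, had 11 of 20 higher in the IP and 4 lower in Ctrl, and 12 higher and 5 lower in IR. The microtubule-associated protein gene Map1b was highest in both among genes with at least 100 counts, at 2.22 (SE 0.262, adjusted p = 7.43e-07) and 1.94 (SE 0.376, adjusted p = 0.00101), and Mapre2, a plus-end binder, lowest, at -1.18 (SE 0.0813, adjusted p = 5.81e-10) and -1.03 (SE 0.101, adjusted p = 5.74e-06). With IR 5 of 20 changed higher and 3 lower, with the dynactin gene Dctn1 at 0.64 (SE 0.143, adjusted p = 0.00256) and Clip1 at -0.30 (SE 0.0699, adjusted p = 0.00351). In the Input 10 of 19 were lower and 1 higher, with Ckap5 at -0.80 (SE 0.0527, adjusted p = 1.63e-12) and Mapre3 at 0.99 (SE 0.0901, adjusted p = 8.25e-10). In the IP 2 of 20 were higher and 4 lower, with Mapre3 at 0.70 (SE 0.194, adjusted p = 0.0218) and the centrosome gene Pcnt at -0.36 (SE 0.0575, adjusted p = 0.000395). By library size alone 8 were higher and 0 lower in the IP, so its balance turned, and 10 and 0 for the change, 9 and 6 for IP/Input in Ctrl and 15 and 3 in IR.

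SRF, the transcription factor that drives actin genes in response to monomer levels, and genes of the calponin and tropomyosin families formed the smallest list. Of the listed cofactors of SRF, Mkl1 and Mkl2 were not matched by symbol, and Myocd was not tested for IP/Input in either condition. In Ctrl 2 of 9 were higher in the IP and 5 lower, with Srf at 0.34 (SE 0.072, adjusted p = 0.000436) and the tropomyosin gene Tpm4 at -1.54 (SE 0.0448, adjusted p = 3.48e-15). In IR 2 of 10 were higher and 5 lower, with Srf at 0.52 (SE 0.08, adjusted p = 0.000197) and Tpm4 at -1.27 (SE 0.0838, adjusted p = 2.02e-07). With IR 1 of 10 changed higher and 2 lower, with Tpm4 at 0.29 (SE 0.0939, adjusted p = 0.0329) and Tagln2 at -0.30 (SE 0.071, adjusted p = 0.00389). In the Input Srf was at -0.38 (SE 0.055, adjusted p = 2.6e-06) and Tagln2 at 0.10 (SE 0.0309, adjusted p = 0.0124), with 3 of 9 higher and 2 lower in all, and in the IP 1 of 10 was higher. By library size alone 3 were higher and 0 lower for the change, so its balance turned, 2 and 0 in the IP, 3 and 3 in the Input, and 1 and 5 for IP/Input in Ctrl.

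Not all of these calls held under other processing. In the IP those of Sptbn1, Lims1, Myo5a, Myo10, Lmnb1, Coro1a, Mapre3 and Pcnt, for the change with IR those of Ahnak2, Myo6, Nefh, Clip1, Tpm4 and Tagln2, and in Ctrl IP/Input that of Srf were lost under at least 1 alternative.

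The genes most like the members over the 12 libraries were found by the Pearson correlation of log2 CPM with the mean standardised log2 CPM of each class, over 11718 other genes, as a description. For the long members they were the lincRNA Gm26917 (0.9703), Camsap2 (0.9565), Dip2c (0.9502), Wdfy3 (0.941) and Vps13b (0.9332). The long members were themselves not alike: Macf1 had a correlation of 0.9512 with their mean and Myh9 of 0.9322. The others had lower values: Utrn 0.4713, Plec 0.4119, Tln1 0.1136, Flna 0.0909 and Ahnak -0.4092. For the short members the nearest were Gpx4 (0.9996), Capzb (0.9992), AW112010, mt-Co3 and Chil3 (0.9991 each). The 3 short members had correlations of 0.9894 to 0.9968 with their mean. The points share libraries and the difference between Input and IP.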

How the data were processed

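RIP-seq counts were used from 12 libraries of CD11b+ cells (3 pools per condition, with Input and YTHDF2 IP each), grouped by the titles and treatment labels. The authors trimmed reads with Trimmomatic 0.39 (per the submitters' processing notes), aligned them with HISAT to mm10 with GENCODE M19 genes and counted them with HTSeq. The deposited values are whole-number read counts per gene with no normalization. Lines on uncounted reads stayed out of library sizes and tests, and their no-feature part is given as a share. The labels name polyA RNA, the methods a total RNA kit. Symbols, lengths and sequences came from GENCODE M21, where 99.93% of identifiers matched.

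Counts were scaled by TMM and tested with edgeR's quasi-likelihood test (edgeR 4.0.16, R 4.3.3) over all genes that reached 10 counts in 3 or more of the libraries compared, with Benjamini-Hochberg adjustment and a threshold of 0.05. Each SE is the log2 difference divided by the square root of F. DESeq2 1.42.0, library size scaling, other filters, the pool as a block, a single fit of all libraries and leaving out each library were alternatives. The members' log ratios per pool used no prior count. The checks of overlap between groups used a prior count of 2, as did the mean ratios flagged below. A shift shared by most genes would not show after TMM scaling. The members and gene lists were chosen with earlier results of these data known. Besides the members, the text names from each list and comparison the gene with the largest change in each direction past the threshold with a mean of at least 100 counts and groups that did not overlap, and the 5 genes most like each class. Input and IP of the same number came from the same pool, and their deviations from the group means were uncorrelated (means of -0.00191 in Ctrl and 0.0124 in IR). The fits were tested on simulated data with known changes. There edgeR recovered 62% (change with IR) to 97% (Input) of 2-fold changes, with 2.98% to 5.1% of its calls false. For DESeq2 5.29% to 18.5% of calls were false, the most for IP/Input in IR. Replicates differed by 3.59 to 21.5 times counting noise.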

Additional observations from a re-analysis of the deposited data

Results flagged for a closer look

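In several genes the mean log2 IP/Input lay below 0 in Ctrl and above 0 in IR on the scale of all 12 libraries, for Macf1 and Myh9 in every pool. On the scale of all 12 libraries the mean log2 IP/Input went from -0.78 to 0.55 for Macf1 and from -0.62 to 0.45 for Myh9, and nothing is read from the calls of this difference, since these genes had been chosen with the values known. Among the listed genes it went from -0.24 to 1.29 for Dst, from -0.40 to 1.08 for Syne2, from -0.11 to 1.27 for Syne1, from -0.58 to 0.66 for Ppl, from -0.41 to 0.12 for Myo5a and from -0.0672 to 0.37 for Dync1h1. Krt18 (-0.99 to 1.71) and Tpm2 (-0.39 to 0.65) lay likewise on few counts, with a change that was not called. The opposite way went Myo1g (0.16 to -0.25), Arpc1a (0.12 to -0.29) and Fmnl1 (0.11 to -0.17). The fits within each condition lie slightly higher. By them Syne1 (0.02) and Dync1h1 (0.05) were not below 0 in Ctrl. Dst (-0.12) and Ppl (-0.47) were not called lower there, while Syne2 (-0.28) and Myo5a (-0.29) were. In IR, Myo1g (-0.13), Arpc1a (-0.16) and Fmnl1 (-0.04) were not called lower.

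For the listed genes the change of the log2 IP/Input with IR was tested by an interaction term with edgeR, and these named genes passed. The ratio was higher in IR for Dst (1.56), Syne2 (1.51), Syne1 (1.40), Ppl (1.27), Syne3 (1.23), Vcl (0.77), Dctn1 (0.64), Lmnb1 (0.63), Actg1 (0.61), Myo5a (0.56), Svil (0.49), Sptbn1 (0.35), Sptan1 (0.31) and Tpm4 (0.29). It was lower in IR for Cald1 (-1.18), Nefh (-0.86), Rdx (-0.77), Myo6 (-0.56), Tmsb10 (-0.56), Ahnak2 (-0.46), Clip1 (-0.30) and Tagln2 (-0.30). Apart from the other spectrin and plakin genes called, they were picked as the largest change in each list and direction among genes with at least 100 counts and no overlap, so their sizes are those of extremes.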

How the results depend on the processing

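The numbers of listed genes called stayed within 1.5 times under most alternatives. For the change with IR, library size alone gave 64 higher and 3 lower, and 10 counts in every library gave 12 lower, beside 29 and 25. For the IP between IR and Ctrl, library size alone gave 58 higher and 1 lower, and a single fit of all libraries 22 lower, beside 27 and 11. In the Input the single fit gave 30 lower, beside 54. Leaving out each library in turn gave 26 to 35 higher and 11 to 25 lower for the change with IR, with the low values (14, 11 and 15) without Ctrl IP replicates 1, 2 and 3. It gave 16 to 25 higher and 4 to 9 lower for the IP, with 16 and 17 higher without Ctrl IP replicates 2 and 3, with 4, 5 and 4 lower without Ctrl IP replicates 1, 2 and 3 and 7 without IR IP replicate 2. It gave 46 to 50 and 69 to 73 for Ctrl IP/Input, 53 to 61 and 63 to 66 for IR IP/Input, and 27 to 36 and 52 to 56 for the Input. Clip1 (0.0087) and Tagln2 (0.0083) changed sign by library size alone for the change with IR, as did Tmsb4x in the IP (0.0697), and Actb in the Input did so in the single fit (0.00087). By library size alone, members without a call in the main fit changed sign too, as given above. These were Actb for the change with IR, and Flna, Ahnak, Actb and Tln1 in the IP. Of the genes named from the lists, 15 of 16 kept their call in all alternatives for Ctrl IP/Input, 16 of 16 for IR IP/Input, 10 of 16 for the change with IR, 16 of 16 for the Input and 5 of 13 for the IP. The excess of genes over 8 kb over all genes in median log2 IP/Input was 0.19 in Ctrl and 0.33 in IR. By the longest transcript it was 0.47 and 0.86, and with protein-coding genes only 0.30 and 0.50. By the longest transcript it was also 0.42 for the change with IR (0.23), -0.26 for the Input (-0.15) and 0.17 for the IP (0.04), the last being 0.0895 with protein-coding genes only. The summed CPM of the 10 members by library size alone was 8538 in Ctrl IP, 20075 in IR Input and 11619 in IR IP, beside 8945, 21508 and 10334. The cause of these shifts was not tested.

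With the pool or replicate number as a block, the numbers of listed genes higher and lower were 48 and 72 for Ctrl IP/Input, 58 and 66 for IR IP/Input, 28 and 23 for the change with IR, 36 and 58 for the Input and 26 and 16 for the IP. Of the named genes, Ahnak2 and Nefh lost their call for the change with IR and no other call changed. Ctrl and IR pools of the same number share only the number (mean correlation of 0.0348 in Input and -0.00404 in IP). Duplicate reads cannot be told from separate molecules, so errors do not separate copies from molecules.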
